A study of Mus musculus with 24 samples.

Results

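Adrb1, Adrb3, Adra1a, Adra2a, Npr1, Npr3, Pde3b, Prkar2b and Ptger3 encode receptors and enzymes through which fat cells sense hormones that start or hold back the release of stored fat. These 9 genes were chosen by name for their known roles, out of 24421 gene symbols counted in adipose tissue of mice. The study compared WT mice with mice that carry either of 2 substitutions of a tyrosine, Y665, in STAT5B, a transcription factor activated by growth hormone and cytokine receptors: Y665F, with phenylalanine in its place, and Y665H, with histidine. All mice were C57BL/6 and 2 months old, and the labels name no treatment. Total RNA was sequenced as 24 libraries in 6 groups, with 4 libraries of females and 4 of males per genotype. Names such as WT female 1 stand for libraries. The labels name no fat depot, do not say whether the mutant animals carried 1 or 2 copies of the change, and do not state that the libraries of a group came from separate animals, so p-values measure the spread between these libraries. A point mutation leaves gene counts unmarked, so the genotype labels could not be checked from the counts.

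In fat cells, catecholamines acting on beta-adrenergic receptors couple through Gs to adenylyl cyclase, raise cAMP and activate protein kinase A, which drives the breakdown of triglyceride. Alpha2-adrenergic receptors and the EP3 prostaglandin receptor couple to Gi and lower cAMP, and phosphodiesterase 3B, which insulin activates, degrades it. Natriuretic peptides act on the guanylyl cyclase receptor NPR1 and raise cGMP, while NPR3 binds the same peptides and removes them.

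The level of a gene is its count per 1e6 counts over all genes (CPM), shown as mean ± SD of a group's 4 libraries or library by library. The gene counts per library summed to 21.0 M to 41.3 M (M, 1e6), and the lowest count of any member was 70, for Adra2a in a Y665F male. All 9 members passed the filter on low counts in every comparison. A gene is termed called where the adjusted p of edgeR's quasi-likelihood test, over all tested genes, was under 0.05. The tissue label was checked with markers: all 12 adipocyte genes were at 1 CPM or more in every group, and their sum ran from 12877 CPM in WT male 2 to 42380.1 CPM in Y665H female 3. Other features of the libraries touch the results. The sum of the 8 epididymis genes was 1257 to 14164 CPM in WT males 2, 3 and 4 but 1.24 CPM in WT male 1, at most 953 CPM in Y665F males and 1657 CPM in Y665H males, and at most 2.16 CPM in females. The adipocyte sum was under 20000 CPM in WT male 2, Y665F male 4 and Y665F female 3, and in Y665F male 4 and Y665F female 3 the 7 mural and smooth muscle genes summed to 6556 and 13136 CPM. The 12 skeletal muscle genes summed to 94.7 to 918 CPM in WT females, 31.8 to 178 CPM in Y665F females and 23.3 to 1639 CPM in Y665H females.

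To compare members with one another, CPM were divided by the length of their merged exons in kilobases. On this scale Prkar2b (mean over the 24 libraries 154 CPM per kb), Npr3 (131) and Adrb3 (118) stood at the top. Prkar2b exceeded Npr3 in 13 of 24 libraries and Npr3 exceeded Adrb3 in 15 of 24, so these 3 levels had no fixed order. Pde3b followed at 47.8 CPM per kb, below Adrb3 in all 24 libraries, then Npr1 at 30.1 and Ptger3 at 12.9. The lowest members were Adrb1 at 2.24, Adra1a at 1.67 and Adra2a at 0.938 CPM per kb. Adrb1 was above Adra1a in 17 libraries and Adra1a above Adra2a in 21. The beta3 receptor transcript was thus the dominant adrenergic receptor message among these 4 in every group, and the alpha2A receptor the scarcest on average. Ptger3 and Npr3 varied most between libraries, with 9.93-fold and 5.81-fold between the lowest and highest CPM, against 3.07-fold for Adra2a.

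**Figure D1:**
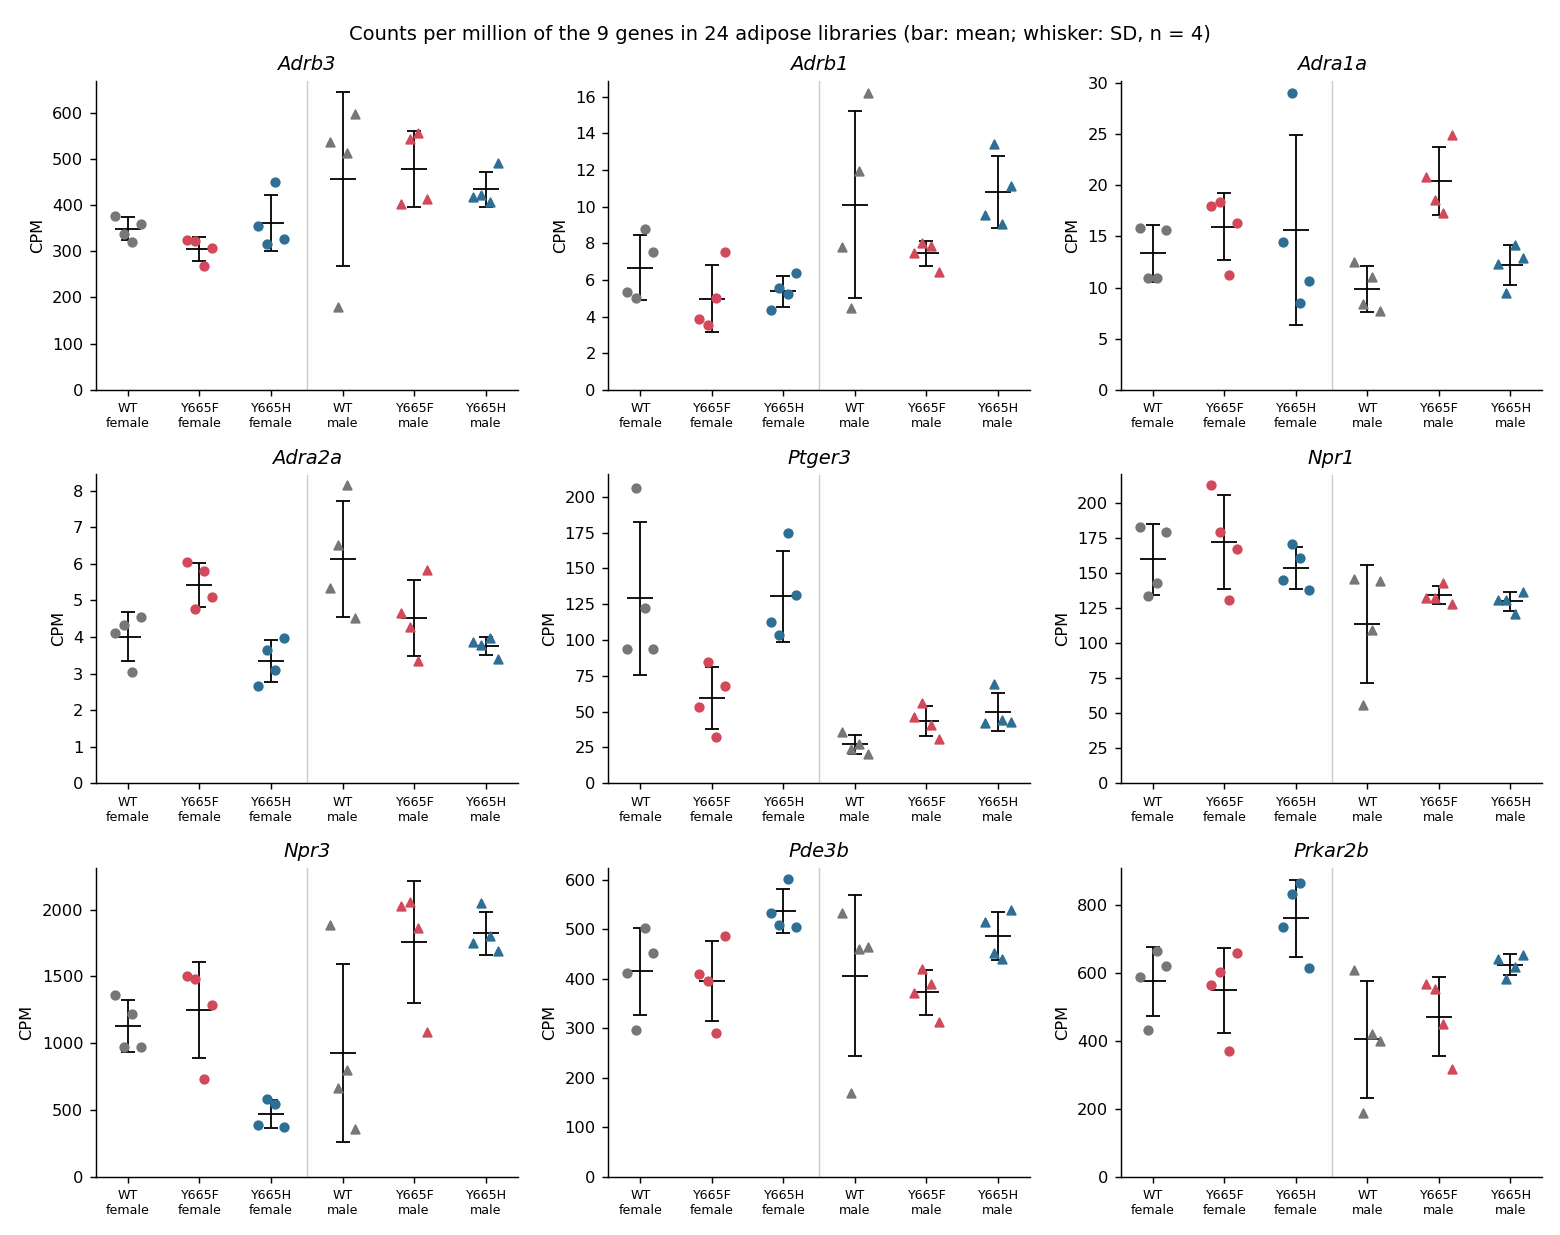
Counts per 1e6 gene counts (CPM, vertical axes from 0) of the 9 genes in the 6 groups, 1 point per library, with the mean as a bar and the SD (n = 4) as a whisker; circles are females and triangles are males. The 4 Y665H females lie between 374 and 583 CPM for Npr3, below all other females, and Ptger3 is lower in all 4 WT males (20.8 to 36.1 CPM) than in the 4 WT females (93.8 to 206 CPM).

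Npr3 and Ptger3 carried the largest called changes, and the 250 bases before their start sites are shown because STAT5B binds DNA and cAMP signalling acts on promoters through its own element. The sequences are from RefSeq on build GRCm38.p6, in the direction of the gene, with matches to the cAMP element core TGACG in capitals. The first lies at chr15:11907372-11907621 on the minus strand and the second at chr3:157566626-157566875 on the plus strand.
Npr3: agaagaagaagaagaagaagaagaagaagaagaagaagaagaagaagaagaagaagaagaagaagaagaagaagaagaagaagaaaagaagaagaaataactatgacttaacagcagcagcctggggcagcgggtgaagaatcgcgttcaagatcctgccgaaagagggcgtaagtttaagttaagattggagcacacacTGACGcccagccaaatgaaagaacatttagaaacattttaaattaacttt
Ptger3: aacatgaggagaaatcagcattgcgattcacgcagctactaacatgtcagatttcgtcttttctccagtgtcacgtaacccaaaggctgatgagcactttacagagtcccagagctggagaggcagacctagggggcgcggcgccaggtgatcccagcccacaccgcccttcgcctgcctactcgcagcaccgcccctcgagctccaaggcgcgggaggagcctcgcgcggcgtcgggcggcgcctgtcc
Of the 9 members, 6 matched this promoter table, with 7 windows in all. No member window held TTCNNNGAA, the palindrome that STAT5 dimers bind, on either strand, and 7.02% of all 32851 promoter windows of that length did. With 7 windows, the absence of a motif this infrequent cannot show that these genes differ from others. The full cAMP response element TGACGTCA was in no member window and in 1.546% of all windows. Its core TGACG, which the full element contains, was found in the windows of Npr3 (50 bases before the RefSeq start), Adra2a (69 bases) and Adrb1 (90 bases), and in 17.77% of all windows. RefSeq and GENCODE starts can differ. The Adra2a window, chr19:54045009-54045258, lies inside the gene's GENCODE span (54044151 to 54048982). These are letter matches in a short window and not measured binding.

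Npr3, the natriuretic peptide clearance receptor, was lower in all 4 Y665H females than in any other female. Its level was 1363, 974, 1220.5 and 969.7 CPM in WT females 1 to 4, and 385, 583, 542 and 374 CPM in Y665H females 1 to 4. All 4 mutant libraries lay below all 4 WT libraries. The mean fell from 1132 ± 194 to 471 ± 107 CPM. The fitted log2 change was -1.25 (SE 0.17, edgeR adjusted p = 0.0141). Npr3 was the only called member of the 9 in this comparison, in which 3.34% of all 15469 tested genes were called. Npr3 and Pde3b did not overlap between the groups, a separation that 13.3% of tested genes showed. The Npr3 call was lost without WT female 1, WT female 4 or Y665H female 1 (adjusted p = 0.0659, 0.0566 and 0.0533) and with a replicate block (0.0572) or all 24 libraries in the fit (0.0964), while the fold change stayed between -1.15 and -1.36 over the 8 fits that left out 1 library. Npr3 lies on chromosome 15, from 11839896 to 11907287 on the minus strand (GRCm38, GENCODE M21), and its exons overlap those of Gm5144 on the opposite strand, which had at most 166 counts in any library against at least 12249 for Npr3.

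In Y665F females Npr3 was at 1500.4, 1481, 731 and 1288 CPM, which overlapped the WT females. The lowest of these, Y665F female 3, is the library with few adipocyte and many smooth muscle transcripts. Set directly against Y665F females, Y665H females were again lower, with a fitted log2 value of -1.27 (SE 0.26, edgeR adjusted p = 0.0138). Without Y665F female 3 the value was -1.47 (adjusted p = 0.00153). Npr3 was called in all 8 fits of this comparison that left out 1 library and in all 7 other alternatives. These 2 comparisons share the Y665H females.

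In males Npr3 was spread widely among the WT libraries. WT males 1 to 4 had 1884, 662, 802 and 354 CPM. Y665F males had 2028, 2059, 1860.4 and 1084 CPM, and Y665H males 1751, 2051, 1802 and 1687 CPM. WT male 1 lay among the mutants and the other 3 WT males lay below all 8 mutant libraries. The fitted change was 0.97 for both mutants, with SE 0.53 and adjusted p = 0.367 in Y665F and SE 0.48 and adjusted p = 0.402 in Y665H, so neither was called. The 3 low WT males were those with an epididymis sum of 1257 to 14164 CPM, and WT male 1 was at 1.24 CPM. Y665H male 3, with an epididymis sum of 1657 CPM, had 1802 CPM of Npr3. The part of this admixture in the male values was not tested. The difference between the sexes in the Y665H effect was 2.23 (SE 0.55, edgeR adjusted p = 0.102), and it passed the test without WT male 1 (adjusted p = 0.00185). That fit called 10.7% of tested genes.

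Npr1, the guanylyl cyclase receptor that carries the natriuretic signal, was called in no comparison in the edgeR fits of 2 groups with TMM scaling. With all 24 libraries in the fit it was called lower in WT males than in WT females (-0.65, edgeR adjusted p = 0.0212), beside 34.9% of all genes. With the adipocyte list as library size it was called lower in Y665H than in Y665F females (-0.63, edgeR adjusted p = 0.0336), beside 42.2%. Group means ran from 114 ± 42.2 CPM in WT males to 172 ± 33.8 CPM in Y665F females. The lowest of the 24 values, 55.7 CPM, was that of WT male 2. Npr1 also has an antisense neighbour with overlapping exons that is not among the counted symbols. Within each library the count of Npr1 was set against that of Npr3. There were 29.3 to 37.7 Npr1 reads per 100 Npr3 reads in Y665H females, against 11.7 to 18.5 in WT females and 12.1 to 17.9 in Y665F females, with no overlap. In Y665H males the ratio was 6.37 to 8.10 per 100, in Y665F males 6.43 to 11.8, and in WT males 7.75 to 40.7. The log2 ratio was -1.59 ± 0.19 (SD, n = 4) in Y665H females and -3.81 ± 0.16 in Y665H males, given without a test since it rests on the same Npr3 values.

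**Figure D2:**
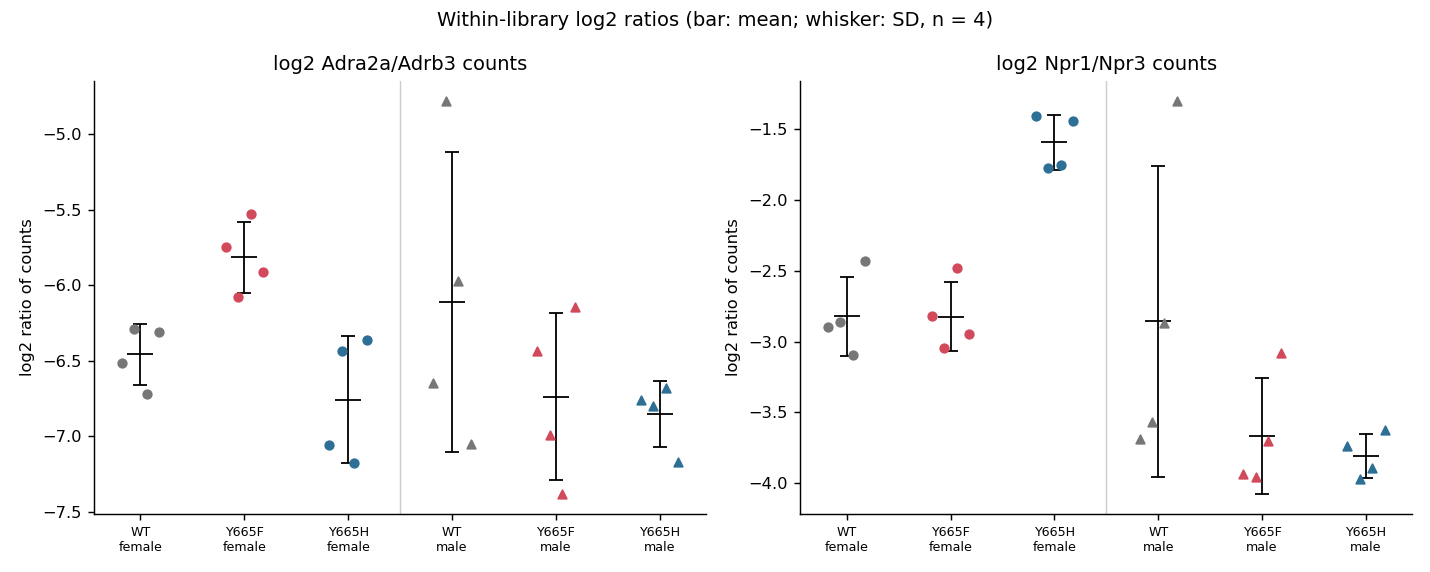
Within-library log2 ratios of read counts, Adra2a to Adrb3 on the left and Npr1 to Npr3 on the right, by group, with 1 point per library and the mean and SD (n = 4) as bar and whisker. The 4 Y665H females sit at -1.77 to -1.41 for Npr1 to Npr3, above the other 8 females, which reach -2.43 at most.

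Of the other genes of natriuretic and cGMP signalling, Mme, which encodes the peptide-cleaving enzyme neprilysin, was called in 3 comparisons. It was lower in Y665F than in WT females (-0.81), and it was at 55.2 ± 11.9 CPM in Y665F females and 130.3 ± 30.9 CPM in Y665H females (log2 fold change 1.37, SE 0.21, adjusted p = 0.00436), and at 54.0 ± 1.86 and 102.7 ± 23.0 CPM in the males (0.87, SE 0.14, adjusted p = 0.0295). In Y665H against Y665F females 2 of the 6 tested genes of the list were called, Mme and Prkg2, a cGMP-dependent kinase gene, which was lower in Y665H (-0.55, SE 0.15). Of all tested genes 17.4% were called in that comparison. The median log2 fold change of the list was -0.02, beside -0.03 over all tested genes.

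Ptger3, which encodes the Gi-coupled EP3 receptor for prostaglandin E2, differed between the sexes in WT mice. WT females 1 to 4 had 94.1, 206, 122 and 93.8 CPM and WT males 1 to 4 had 36.1, 23.8, 27.8 and 20.8 CPM, without overlap. The gene lies on chromosome 3, from 157566892 to 157645888 on the plus strand of the same build. The log2 fold change of WT males against WT females was -2.39 (SE 0.32, edgeR adjusted p = 0.00688). It was the only called member in this comparison, in which 13.1% of tested genes were called, and the only member without overlap, as were 25.2% of tested genes. Ptger3 was called in all 8 fits of this comparison that left out 1 library and in all 7 other alternatives. WT male 1, with an epididymis sum of 1.24 CPM, was also below all WT females, at 36.1 CPM. All 6 tested thermogenic genes and all 9 adipose progenitor genes had lower fitted values in these males, with 5 and 6 called, and all 12 adipocyte genes had lower fitted values with none called by edgeR. Of 12 skeletal muscle genes 9 were called lower in these males (list median -5.10), as were 4 of 7 mural and smooth muscle genes, and 3 of 10 epithelial genes were called higher. The part of these cell types in the Ptger3 value was not tested. The labels do not say that the tissue of both sexes came from the same depot. In bulk tissue, fewer cells of a type and less RNA per cell cannot be told apart.

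In Y665F females Ptger3 was at 53.6, 84.4, 32.5 and 67.6 CPM, all below the lowest WT female (93.8 CPM). The log2 fold change was -1.24 (SE 0.35), which was not called by edgeR (adjusted p = 0.0885) but was by DESeq2 (0.00512) and with all 24 libraries in the fit (0.0406). No member of the 9 was called by edgeR in Y665F against WT females, where 3.33% of tested genes were called, 2 members had an unadjusted p under 0.05 beside 26.3% of genes, and DESeq2 called 2, Ptger3 and Adrb3, beside 12.9% of genes. Ptger3 and Adra2a did not overlap there, as 22.9% of tested genes did not. With all 24 libraries in the fit 2.98% of genes were called.

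Y665H females had 113, 104, 175 and 132 CPM of Ptger3, within the WT range and above every Y665F female. Y665H exceeded Y665F by a log2 value of 1.27 (SE 0.30, edgeR adjusted p = 0.0217). The call was lost without Y665F female 1, Y665F female 4 or Y665H female 3 (adjusted p = 0.0657, 0.0501 and 0.0582) and with a replicate block (0.0737). In males the mutants were higher than WT in fitted value: Y665F males had 46.3, 56.0, 40.5 and 31.2 CPM, and Y665H males 42.0, 69.6, 44.1 and 42.6 CPM, the latter all above WT. Neither passed the test (0.75, SE 0.26, adjusted p = 0.250, and 0.89, SE 0.27, adjusted p = 0.402). WT males 2, 3 and 4, with an epididymis sum of 1257 to 14164 CPM, had 20.8 to 27.8 CPM of Ptger3. WT male 1, with a sum of 1.24 CPM, had 36.1 CPM, and Y665H male 3, with a sum of 1657 CPM, had 44.1 CPM. The part of this admixture in the male Ptger3 values was not tested. The difference between the sexes in the Y665F effect was 1.97 (SE 0.48, edgeR adjusted p = 0.111; DESeq2 adjusted p = 0.00421; edgeR without WT male 1, 0.0222). No gene of 16732 was called by edgeR for that difference (0%), with 3644 at an unadjusted p under 0.05 and 1149 (6.98%) called by DESeq2, among them the members Adra1a and Ptger3. Without WT male 1 edgeR called 9.84% of genes for it.

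The genes that make or degrade prostaglandin E2, the ligand of EP3, were a list of 7. In Y665H against Y665F females 2 were called higher and 1 lower, where 17.4% of all tested genes were called. Ptges2 (0.68, SE 0.12) and Ptges (0.62, SE 0.16), both prostaglandin E synthases, were higher in Y665H. Ptgs1, the constitutive cyclooxygenase, was lower (-0.65, SE 0.15). Hpgd, which inactivates the prostaglandin, was higher in WT males (29.0 ± 5.50 CPM) than in WT females (13.1 ± 0.832 CPM; 1.00, SE 0.17, adjusted p = 0.0134).

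Adra1a, on chromosome 14 from 66635251 to 66771168, encodes the alpha1A-adrenergic receptor, which couples to Gq and calcium. It was higher in Y665F males, at 20.9, 18.5, 17.3 and 24.9 CPM, than in any WT male (12.5, 8.38, 11.0 and 7.70 CPM) or Y665H male (12.3, 9.46, 14.1 and 12.9 CPM). Against WT the log2 fold change was 1.10 (SE 0.21, edgeR adjusted p = 0.113), which was not called; DESeq2 called it (0.000349), as did edgeR with all 24 libraries (0.0217) or without WT male 1 (0.0407). In Y665F against WT males edgeR called no gene of 16240 (0%), with 2740 at an unadjusted p under 0.05 and 1036 (6.6%) called by DESeq2. For this comparison edgeR called 13.2% of genes with all 24 libraries in the fit and 3.43% without WT male 1. Adra1a was the only member without overlap there, as were 8.85% of tested genes. In Y665H against Y665F males it was the 1 called member, lower in Y665H (-0.79, SE 0.13, edgeR adjusted p = 0.0341), with 1.03% of tested genes called. That call was lost in 7 of the 8 fits that left out 1 library (adjusted p = 0.0619 to 0.119), held only without Y665F male 4, and kept its direction in all 8. It was also lost with library totals (0.0821), the adipocyte list as library size (0.0780), all 24 libraries (0.168) or a replicate block (0.123). Adra1a, Adrb1, Pde3b and Prkar2b did not overlap between these groups, as 12.5% of tested genes did not.

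In females Adra1a did not separate by genotype. The means were 13.3 ± 2.78 CPM in WT, 16.0 ± 3.31 CPM in Y665F and 15.7 ± 9.28 CPM in Y665H, where 1 library reached 29.1 CPM and the other 3 ran from 8.49 to 14.5 CPM. The difference between the sexes in the Y665F effect was 0.94 (SE 0.30, edgeR adjusted p = 0.143; DESeq2 adjusted p = 0.0451).

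Adra2a, the Gi-coupled alpha2A receptor that restrains lipolysis (chromosome 19, 54044151 to 54048982), was the scarcest member, with 70 to 284 reads per library. It was at 4.12, 4.33, 3.04 and 4.54 CPM in WT females, 6.04, 4.76, 5.80 and 5.09 CPM in Y665F females and 2.66, 3.65, 3.11 and 3.98 CPM in Y665H females. The Y665F females were above all other females. Y665H against Y665F gave a log2 value of -0.55 (SE 0.15, edgeR adjusted p = 0.0343), which was lost in 7 of the 8 fits that left out 1 library, held only without Y665H female 4, and was lost with no filter on low counts (0.0529), all 24 libraries in the fit (0.0648) or a replicate block (0.109). Against WT the value was 0.30 (SE 0.16, adjusted p = 0.261) in Y665F females. In males Adra2a was at 6.14 ± 1.58 CPM in WT, 4.52 ± 1.04 CPM in Y665F and 3.75 ± 0.239 CPM in Y665H, and all 4 Y665H males lay below all 4 WT males (-0.70, SE 0.23, adjusted p = 0.402). Ptger3 was the only other member without overlap in Y665H against WT males, where 3.60% of tested genes did not overlap. In that comparison edgeR called no gene of 16406 (0%), with 1873 at an unadjusted p under 0.05 and 66 called by DESeq2, none of them a member.

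Adrb3, the beta3-adrenergic receptor and main lipolytic receptor of mouse fat cells, was called in no comparison in the edgeR fits on every library of its groups with TMM scaling. Without WT male 2 it was called higher in WT males than in WT females (0.51, adjusted p = 0.0294), with the value of 0.24 (adjusted p = 0.639) in the full fit. The fit without WT male 2 called 9.9% of tested genes. Means ran from 305 ± 25.7 CPM in Y665F females to 478 ± 82.2 CPM in Y665F males. In females WT libraries had 320.3 to 377 CPM, Y665F 268 to 324 CPM and Y665H 316 to 449.7 CPM. The Y665F change was -0.32 (SE 0.10, edgeR adjusted p = 0.108; DESeq2 adjusted p = 0.0214). With the adipocyte list as library size it turned to 0.20, and the Y665H against Y665F value in females turned from 0.39 to -0.25, so the direction of Adrb3 in these females depended on the scaling. In males the lowest library was WT male 2 at 179 CPM, and the other 11 ran from 402 to 597 CPM.

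Adrb1, the beta1 receptor, is the minor beta receptor of the pair in mouse fat. It was at 3.52 to 8.76 CPM over the 12 females and 4.44 to 16.2 CPM over the 12 males. WT males alone covered 4.44 to 16.2 CPM. Y665H males (9.04 to 13.4 CPM) were above Y665F males (6.45 to 7.99 CPM) without overlap, at 0.49 (SE 0.18, adjusted p = 0.213). Adrb1 was called in none of the 9 comparisons.

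Per 100 reads of Adrb3 there were 1.48 to 2.17 reads of Adra2a in Y665F females, 0.948 to 1.28 in WT females and 0.691 to 1.22 in Y665H females. The ratio of the inhibitory to the stimulatory receptor message was therefore higher in all 4 Y665F females than in the other 8. In males this did not recur, with 0.600 to 1.41 in Y665F, 0.755 to 3.65 in WT and 0.696 to 0.974 in Y665H. The highest value of each sex, 2.17 in Y665F female 3 and 3.65 in WT male 2, was in a library low in adipocyte markers. Over the 24 libraries Spearman's rho with the adipocyte markers was -0.68 for Adra2a and 0.08 for Adrb3. The part of cell content in these ratios was not tested.

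Pde3b, on chromosome 7 from 114415281 to 114539251, and Prkar2b, on chromosome 12 from 31958476 to 32061296, act within the cAMP pathway inside the cell. Pde3b was at 411, 296, 502 and 451 CPM in WT females, 409, 396, 290.1 and 487 CPM in Y665F females and 532, 508, 602 and 505 CPM in Y665H females, the last group lying above the other two. The log2 fold change of Y665H against Y665F was 0.59 (SE 0.17, edgeR adjusted p = 0.0436) and that against WT 0.39 (SE 0.15, adjusted p = 0.168). Prkar2b, the RII-beta subunit that holds protein kinase A inactive until cAMP binds, was at 575 ± 102 CPM in WT, 548 ± 125 CPM in Y665F and 760.3 ± 113 CPM in Y665H females. Y665H gave 0.61 (SE 0.20, adjusted p = 0.0715) against Y665F and 0.42 (SE 0.16, adjusted p = 0.147) against WT. In males Y665H also had the highest means, at 487 ± 48.4 CPM for Pde3b and 623 ± 30.9 CPM for Prkar2b, against 373 ± 45.4 and 471 ± 115 CPM in Y665F. The male fold changes of Y665H against Y665F were 0.33 (SE 0.13, adjusted p = 0.245) and 0.35 (SE 0.19, adjusted p = 0.377).

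Both genes moved with the adipocyte markers, and so, in either direction, did 2 other members. Over the 24 libraries Spearman's rho with these markers was 0.71 for Pde3b, 0.83 for Prkar2b, 0.63 for Ptger3 and -0.68 for Adra2a. It was at most 0.45 (Npr1) for the rest. The 3 libraries with an adipocyte sum under 20000 CPM were the 3 lowest of all 24 for Prkar2b, at 188 CPM in WT male 2, 317 CPM in Y665F male 4 and 369.5 CPM in Y665F female 3. For Pde3b WT male 2 was lowest at 169 CPM and Y665F female 3 next at 290.1 CPM. In Y665H against Y665F females 11 of 12 adipocyte genes had higher fitted values in Y665H, with a median of 0.48 and 3 called. When the adipocyte list served as library size, the Pde3b change of Y665H against Y665F became -0.02 in females and -0.04 in males. Against WT females, the Pde3b value of Y665H stayed at 0.28 to 0.41 over 6 alternatives on every library, this scaling among them. It was called in none. The part of adipocyte content in the values of Pde3b, Prkar2b, Ptger3 and Adra2a was not tested. Without Y665F female 3 the Pde3b and Prkar2b changes of Y665H against Y665F females were 0.45 and 0.46 (edgeR adjusted p = 0.0236 and 0.0484). The Pde3b call was lost in 6 of the 8 fits that left out 1 library, that is without Y665F female 1 or 2 or any 1 of the 4 Y665H females, and also with library totals (adjusted p = 0.0739), all 24 libraries (0.133) or a replicate block (0.103).

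**Figure D3:**
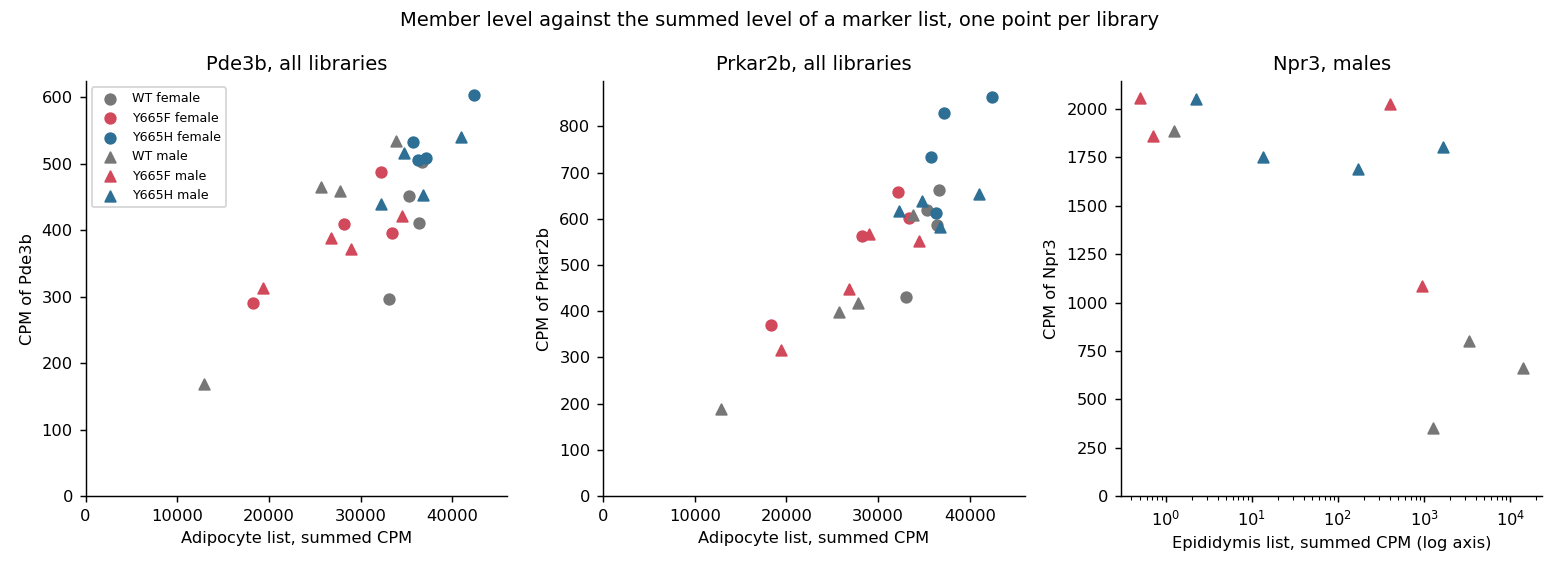
CPM of Pde3b and Prkar2b in all 24 libraries against the summed CPM of the 12 adipocyte marker genes, and CPM of Npr3 in the 12 males against the summed CPM of the 8 epididymis genes (log axis); each point is a library. The 3 points under 20000 CPM on the adipocyte axis are the 3 lowest for Prkar2b, and the 3 WT males at 1257 CPM or more on the epididymis axis are the 3 lowest males for Npr3.

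Across the 9 genes, Y665H against Y665F females was the comparison with the most calls: Npr3 and Adra2a fell, Pde3b and Ptger3 rose, and the other 5 were not called. In this comparison 17.4% of all 15493 tested genes were called, and 28.1% did not overlap, as did the same 4 members. DESeq2 called 25.2% of genes and 6 members, the 4 named with Adrb3 and Prkar2b. The other cell types also differed here. In Y665H 6 of 10 macrophage genes and 7 of 7 B cell genes were called lower, and 5 of 7 thermogenic and 8 of 12 skeletal muscle genes were called higher. All tested genes of these lists had fitted values in the direction of their list's calls. Macrophage sums were 1362 to 2171 CPM in Y665F and 704 to 1046 CPM in Y665H females. The part of these cell types in the members' values was not tested. No member was called for the difference between the sexes in the Y665H effect, for which 0.0178% of 16827 genes were called by edgeR and DESeq2 called 4.13% with 1 member, Npr3.

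**Figure D4:**
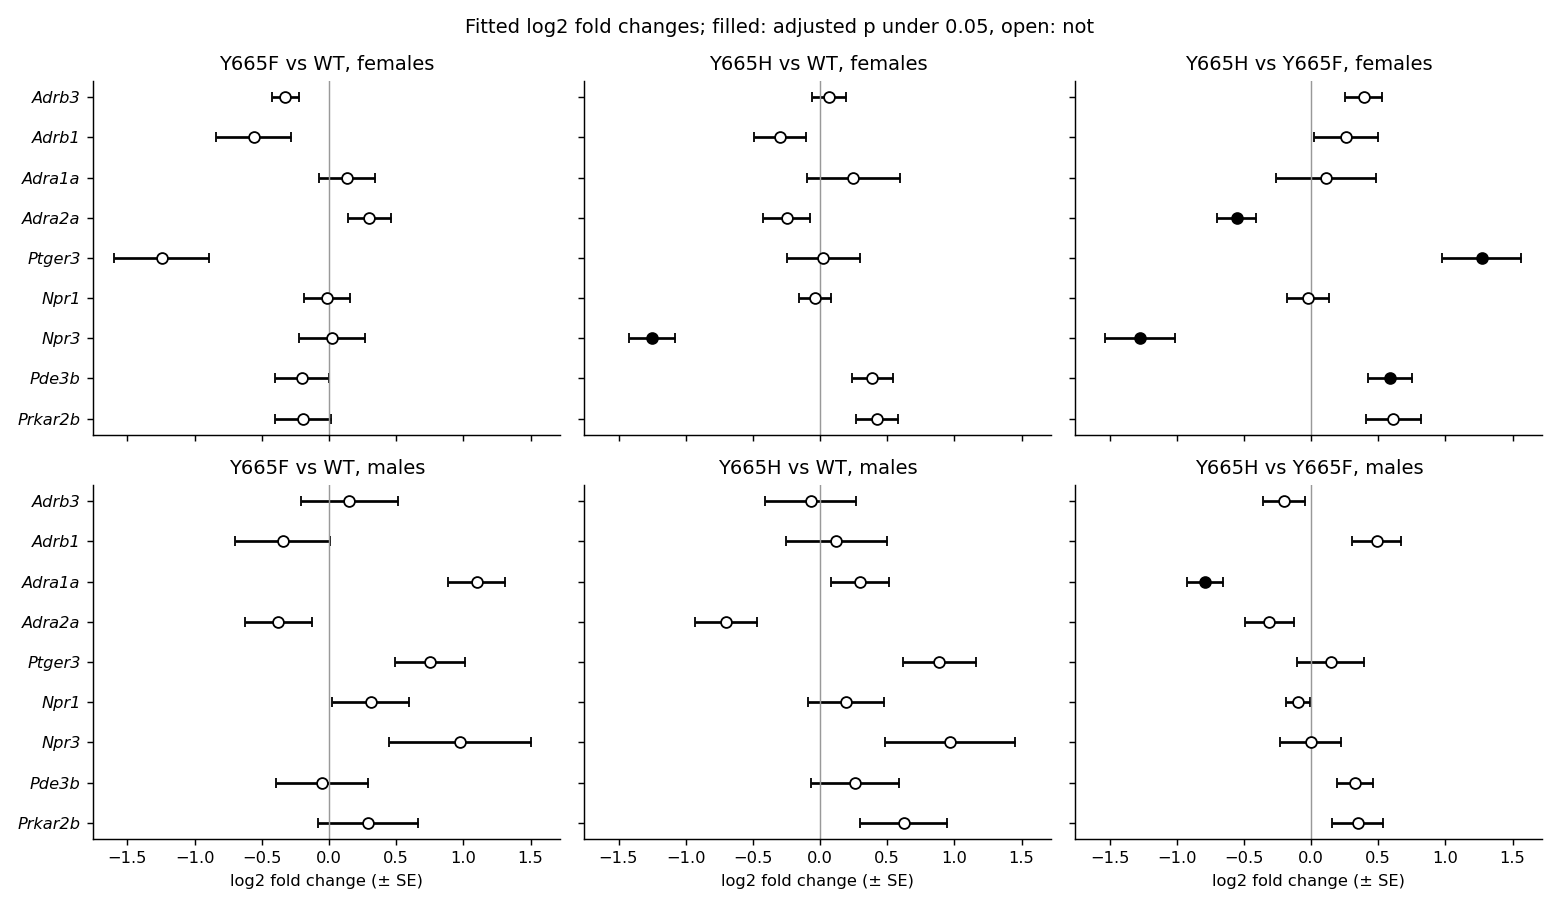
Fitted log2 fold changes (horizontal axis, with the SE as whisker) of the 9 genes in the 3 genotype comparisons within females (top) and males (bottom); filled points passed an adjusted p of 0.05 and open points did not. The filled points are Npr3 at -1.25 in Y665H against WT females, Adra2a, Ptger3, Npr3 and Pde3b in Y665H against Y665F females, and Adra1a at -0.79 in Y665H against Y665F males.

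The rest of the pathway was described with 10 lists. In Y665H against Y665F females 18 of their 110 tested genes were called higher and 8 lower, 23.6% in all beside 17.4% of all genes. Among other receptors of lipolysis 4 of 18 were called higher and none was called lower. By fitted value 10 were higher and 8 lower. Hcar2, the Gi-coupled receptor for ketone bodies and niacin, went from 10.7 ± 1.04 to 25.1 ± 5.74 CPM (1.37, SE 0.18, adjusted p = 0.00273), and Hcar1, the lactate receptor, from 114 ± 4.55 to 188 ± 35.4 CPM (0.86, SE 0.12). Adora1, the Gi-coupled adenosine A1 receptor, rose by 0.90 (SE 0.25), and Gipr, the GIP receptor, by 0.91 (SE 0.22). Hcar2 was also higher than in WT females (13.2 ± 1.67 CPM; 0.95, SE 0.18, adjusted p = 0.0306).

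Adcy7, an adenylyl cyclase abundant in immune cells, was higher in Y665F females than in the other females. It was at 50.4 ± 9.37 CPM in WT females, 91.6 ± 10.2 CPM in Y665F females (0.73, SE 0.14, adjusted p = 0.0346) and 34.4 ± 4.62 CPM in Y665H females (-1.27 against Y665F, SE 0.11, adjusted p = 0.00148). In males Y665H was also below Y665F (73.6 ± 10.1 against 111 ± 7.66 CPM; -0.64, SE 0.10, adjusted p = 0.0261). In Y665F against WT females 6 of 8 T cell and 3 of 7 B cell marker genes were called higher and 9 of 10 macrophage genes had higher fitted values. The part of immune cells in the Adcy7 values was not tested.

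Of the lipolysis effectors 2 of 11 were called higher in Y665H against Y665F females, and all 11 had higher fitted values. Abhd5, the co-activator of the triglyceride lipase, went from 117 ± 19.3 to 203 ± 39.2 CPM (0.94, SE 0.17), and Mgll, monoglyceride lipase, rose by 0.73 (SE 0.21). The other 9 were not called, while 17.4% of all tested genes were called in this comparison. The list's median was 0.45 beside -0.03 over all genes, close to the adipocyte list's 0.48. Both called genes of receptor desensitisation fell, Arrb1, which encodes beta-arrestin 1 (-0.66, SE 0.09, adjusted p = 0.00287), and Adrbk1, the receptor kinase GRK2 (-0.30, SE 0.07, adjusted p = 0.0236), and all 6 tested genes of the list had lower fitted values. Among kinase A subunits and anchors Akap7 and Akap1 rose and Akap13 and the kinase inhibitor gene Pkig fell. Pkig was also lower in Y665H than in WT females (-0.37, SE 0.08, adjusted p = 0.0437). Among phosphodiesterases other than Pde3b only Pde8a was called of 16 (0.61, SE 0.14).

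Of 12 transcripts that cAMP induces, Ppargc1a and Ucp1 were called higher and Fosl2 lower in Y665H against Y665F females. Ucp1, the uncoupling protein of thermogenic fat and also in the thermogenic marker list, was at 4.68 to 24.9 CPM in WT females, 0.136 to 0.858 CPM in Y665F females and 0.312 to 88.1 CPM in Y665H females. The Y665F level was lower than WT (-5.25, SE 0.76, adjusted p = 0.0160), and the Y665H libraries overlapped both groups. Dusp1 fell in Y665H against WT females, from 88.8 ± 25.1 to 41.3 ± 3.67 CPM (-1.08, SE 0.19, adjusted p = 0.0248). In the catecholamine list Slc6a2, the noradrenaline transporter of sympathetic nerves, was at 6.52 ± 0.849 CPM in WT females and 1.79 ± 0.449 CPM in WT males (-2.01, SE 0.24, adjusted p = 0.00438), and it was higher in Y665H than in Y665F females (10.0 ± 2.76 against 4.49 ± 1.11 CPM; 1.29, SE 0.24). Maob, whose enzyme degrades catecholamines, was higher as well in Y665H (0.63, SE 0.17).

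Between mutants and WT the lists held few calls. In Y665F against WT females 1 gene was called higher (Adcy7) and 2 were called lower (Mme at -0.81 and Ucp1) of 111 tested, 2.70% beside 3.33% of all genes. In Y665H against WT females 1 was called higher (Hcar2) and 2 were called lower (Pkig and Dusp1) of 110, 2.73% beside 3.34%. In both male comparisons with WT edgeR called none of 111, with 19 in Y665F and 7 in Y665H at an unadjusted p under 0.05. In WT males against WT females 8 were called higher and 10 called lower of 113, 15.9% beside 13.1%, among them 7 of 17 phosphodiesterases. Of these Pde4d (-1.26, SE 0.20) and Pde7a (-0.78, SE 0.15) were lower in males, and Pde11a was at 2.40 to 10.6 CPM in WT males and at most 0.188 CPM in WT females. The part of the epididymis transcripts in the Pde11a value was not tested.

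As a description of shared patterns, the 2 genes ranking most like each member over the 24 libraries were taken by Spearman's rho of CPM among 11682 other genes averaging 5 CPM or more (11683 for Adra2a). The libraries share groups and cell content, so these values carry no test. Npr3 was nearest to Adamts5 (0.957) and Tspan17 (0.947), and Ptger3 was near to Ppip5k1 (0.958). Pde3b was nearest to Dbt (0.917) and Pex3 (0.896), and Prkar2b to Hibch (0.904) and Hsdl2 (0.897). Adra2a was nearest to Bax (0.886), Adrb1 to Podn (0.870) and Aox1 (0.836), and Npr1 to Mnda (0.856) and Ifi204 (0.836). The nearest genes of Adrb3 were Tcf15 (0.832) and Cry2 (0.823), and those of Adra1a were Ap1g2 (0.821) and Ksr1 (0.794).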

How the data were processed

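The deposited files hold raw counts per gene symbol, 1 file per library; per the submitters' processing notes, FastQC 0.11.9, Trimmomatic 0.36, STAR, SAMtools 1.9, Picard 2.9.2, HTSeq 0.9.1 and mm10 were used, with no roles given. Libraries were stranded and paired-end after removal of ribosomal RNA, per the labels' protocols. Annotation and strand setting are not given in the sources used here, so reads of a gene and its antisense partner may not be separated. The 5 entries that name no gene (24.8 to 39.7% of counts) were left out of library sizes. Rn45s held 3.27 to 15.0% of gene counts. Libraries were grouped by title.

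CPM were computed from gene totals; exon lengths came from GENCODE M21. Each pair of groups was fitted on its 8 libraries, and each sex difference on 16, with edgeR 4.0.16 (limma 3.58.1, R 4.3.3): TMM, filterByExpr, quasi-likelihood F test, Benjamini-Hochberg adjustment over all tested genes. The code was tested on simulated data. Alternatives were DESeq2 1.42.0, library totals, the adipocyte list as library size, no low-count filter, all 24 libraries, a replicate block and leaving out each library. Added after seeing the data was a fit without the 3 libraries low in adipocyte markers. No pair of libraries of the same group agreed within sampling noise (chi-square per degree of freedom at least 17.3). Pairs between groups were not compared.

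The members and lists were chosen with earlier results of these data known. Named genes were all 9 members, at most 4 called genes per pathway list and comparison by smallest p, and the 2 genes most like each member. A few genes that this rule names are not reported here.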

Additional observations from a re-analysis of the deposited data

Results flagged for a closer look

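Dixon's ratio was computed for each member, and for the 2 within-library ratios, in each group of 4 libraries, 66 groups in all, of which chance would flag about 1 in 20. It passed the 95% critical value once. Ptger3 in Y665H male 2 was at 69.6 CPM, whereas the other 3 Y665H males ran from 42.0 to 44.1 CPM (ratio 0.925). That library had an epididymis sum of 2.24 CPM.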

How the results depend on the processing

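Counts of called members out of 9 were recomputed in the order Y665F against WT females, Y665F against WT males, Y665H against WT females, Y665H against Y665F females, Y665H against Y665F males and WT males against WT females, where they were 0, 0, 1, 4, 1 and 1, and for the sex differences in the Y665F and Y665H effects, where they were 0 and 0. DESeq2 gave 2 in Y665F against WT females, 1 in Y665F against WT males, and 2 and 1 for the sex differences. With all 24 libraries in the fit they were 1, 1, 0, 2, 0 and 2, and 1 for the Y665H sex difference. Library totals gave 0 in Y665H against Y665F males, and the adipocyte list as library size gave 0 there and 2 in WT males against WT females. Without the 3 libraries low in adipocyte markers, a fit added after seeing the data, the last comparison gave 2. Leaving out 1 library at a time gave 0 to 1 in Y665F against WT males, 0 to 1 in Y665H against WT females, 1 to 4 in Y665H against Y665F females, 0 to 1 in Y665H against Y665F males, 1 to 4 in WT males against WT females (4 without WT male 1), 0 to 3 for the Y665F sex difference and 0 to 1 for the Y665H sex difference, both extremes without WT male 1. Leaving out WT male 1 also raised the share of all genes called from 13.1 to 31.1% in WT males against WT females, from 0 to 9.84% for the Y665F sex difference and from 0.0178 to 10.7% for the Y665H sex difference. Leaving out 1 library gave 0 throughout in Y665F against WT females and in Y665H against WT males.

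Replicate numbers are shared between groups. Same-numbered libraries correlated at -0.46 to 0.77, in no comparison all over 0.1 and in none each best with its own number. The labels do not say whether the numbers pair animals. These correlations cannot decide it, because single libraries of a group differ in cell content. With a replicate block 0 members were called in Y665H against WT females, 1 in Y665H against Y665F females and 0 in Y665H against Y665F males; calls over all genes in Y665H against WT females went from 516 to 32.

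Among member values with an unadjusted edgeR p under 0.1, these 6 turned in sign with the adipocyte list as library size: Adrb3 in Y665F against WT females (0.20) and in Y665H against Y665F females (-0.25), Pde3b in Y665H against Y665F females (-0.015) and males (-0.044), and Adra1a (0.19) and Npr1 (0.011) in WT males against WT females. The cause was not tested. Over all 81 member values this scaling turned 29 signs, 23 of them at a p over 0.1, and library totals turned 5. Library totals moved the median over all genes from -0.03 to -0.18 in Y665H against Y665F females and from 0.02 to 0.15 in Y665F against WT females, so fold changes are relative to TMM.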
